A study of Mus musculus with 6 samples.

Results

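MiR-221 and miR-222 are a pair of miRNAs encoded side by side on mouse chromosome X. They were read in cells sorted as endothelial cells (ECs) from the bone marrow. The 4 mature miRNAs, mmu-miR-221-3p, mmu-miR-221-5p, mmu-miR-222-3p and mmu-miR-222-5p, were chosen by name from the 1881 mouse miRNAs on the array (the species prefix is left out below). The guide arms miR-221-3p and miR-222-3p were detected on all 6 arrays, and the 5p arms on none (0 of 6). The 3p arms differed between the cell types in opposite directions. MiR-221-3p was 1.66-fold higher in type H ECs and miR-222-3p was 1.27-fold higher in type L ECs, so that the pair shifted against each other by 1.07 ± 0.023 (standard error, n = 3 arrays per cell type) on the log2 scale. The sign for miR-221-3p depended on how the arrays were scaled, and the probes of the pair differ in length, both of which are given below with their values.

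Type H ECs (CD31hiEmcnhi) are bone capillary cells rich in CD31 and endomucin that lie near bone-forming cells, and type L ECs (CD31loEmcnlo) are the endothelial cells of the marrow with less of both proteins. According to the labels, both were sorted from the bone marrow of wild type C57BL/6 mice aged 1 month and carried no transgene or treatment, and each was measured on 3 arrays with 1 sample per array. The labels also state that the cells were kept in EGM-2 medium on fibronectin after sorting, a step that the methods for the arrays do not describe. The labels give the mice as male and the methods as female, and whether a sample came from 1 mouse or several is not given in the sources used here. P-values therefore measure the spread between these arrays.

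A miRNA is cut from a hairpin precursor, and the arm that is loaded into an Argonaute protein, the guide, lowers the output of mRNAs that pair with its bases 2 to 8, the seed. MiR-221 and miR-222 are usually described as products of 1 primary transcript whose guides share a seed and targets. In endothelial cells they are known as brakes on vessel growth that act on Kit, the stem cell factor receptor, while in proliferating cells they act on Cdkn1b, an inhibitor of the cell cycle. No mRNA was measured here.

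The mature sequences are shown because the seed is what the pair share, and the remaining bases are what the array uses to tell them apart. RefSeq (GRCm38.p6) holds 3 of the 4 members, all on the minus strand of chromosome X. MiR-221-3p lies at chrX:19146307-19146329, miR-221-5p at chrX:19146344-19146369 and miR-222-3p at chrX:19146901-19146923. Capitals mark the seed.
miR-221-3p: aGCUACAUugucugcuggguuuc
miR-222-3p: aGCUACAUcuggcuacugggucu
miR-221-5p: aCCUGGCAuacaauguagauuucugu
The 3p arms are identical over their first 8 bases and, compared position by position without gaps, at 11 of 23 positions. Beyond base 8 they match at 3 of 15. The hairpins Mir221 (19146294 to 19146388) and Mir222 (19146893 to 19146971) are separated by 504 bases, and no other RefSeq gene overlaps them. The nearest other genes are the lncRNA Gm14636, 9500 bases beyond Mir222, and the pseudogene Gm5383, 203060 bases on the other side.

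Among the mature mouse miRNAs in RefSeq, 1 more has the same bases 2 to 8. This is miR-1928 of chromosome 1 (chr1:74206562-74206578, minus strand), a shorter sequence.
miR-1928: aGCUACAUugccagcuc
MiR-1928 was on the array and was detected on 0 of 6 arrays. The seed group was thus read only through miR-221-3p and miR-222-3p.

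The probes are shown because they set which bases of each miRNA are read. Each 3p arm has 2 probes, and capitals mark the probe bases that pair with the seed.
miR-221-3p, probe of 19 bases: gaaacccagcagacaATGT
miR-221-3p, probe of 20 bases: gaaacccagcagacaATGTA
miR-222-3p, probe of 13 bases: acccagtagccag
miR-222-3p, probe of 14 bases: acccagtagccagA
The longer miR-221-3p probe pairs with bases 4 to 23, up to the 3′ end. The longer miR-222-3p probe pairs with bases 8 to 21 and leaves the last bases of the RefSeq sequence unpaired. Laid against the partner, the miR-222-3p probes match miR-221-3p at no more than 10 bases, with a longest exact stretch of 6. The miR-221-3p probes match miR-222-3p at no more than 11, also with a longest exact stretch of 6. Binding of either miRNA to the probes of the other was not measured.

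Type H arrays detected 263 to 281 miRNAs each and type L arrays 295 to 309. Each cell type had a slide and a scan of its own, so that the effects of cell type, slide and scan cannot be told apart. The 10 control features detected on every array all had more signal in type H, with log2 differences of 0.21 to 1.47. Of the markers, miR-126a-3p and miR-126a-5p, listed here for endothelial cells, were detected on 0 of 6 arrays. None of 8 haematopoietic markers was detected on any array (0), and 6 of 7 markers of stromal or mural cells were detected on all 6. The summed signal of these 7, before normalization, was 898 to 1137 in type H and 765 to 879 in type L ECs. After quantile normalization 5 of the 7 were higher in type H ECs, 1 was lower and 1 did not pass. Of the 7, the mural cell markers miR-143-3p and miR-145a-5p rose most. Their log2 differences were 1.1045 (standard error 0.037, adjusted p = 4.6e-06 from limma) and 1.21 (standard error 0.038, adjusted p = 4.6e-06 from limma). MiR-145a-5p was detected on 2 of the type L arrays, and with the deposited total signal it did not pass, at 0.47 (adjusted p = 0.74 from limma). The other rises were 0.31 to 0.64, miR-140-3p was lower (-0.22) and miR-199a-3p did not pass (0.026). After scaling on the control features, described below, 0 of the 7 were higher, 3 were lower and 4 did not pass. The part of such cells in the results was not tested. Both listed endothelial markers were thus absent from the detected set in both cell types. In sorted populations measured in bulk, fewer cells of a type and less RNA per cell cannot be told apart.

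The raw signal of miR-221-3p, the sum of the total signals of its probes before normalization, was 60.3, 50.6 and 49.5 on type H arrays 1, 2 and 3. It was 34.1, 37.7 and 39.6 on type L arrays 1, 2 and 3. The lowest type H value exceeded the highest type L value. After quantile normalization, which gives each array the same distribution of signals, its log2 signal was 5.73, 5.76 and 5.82 in type H ECs and 4.95, 5.05 and 5.12 in type L ECs. The means were 5.77 ± 0.045 (SD, n = 3) and 5.04 ± 0.086 (SD, n = 3). The log2 difference was 0.73 (standard error 0.053, adjusted p = 5.1e-05, limma, Benjamini-Hochberg over all tested miRNAs).

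For miR-222-3p the raw signal was 21.0, 16.95 and 17.4 on type H arrays 1, 2 and 3 and 26.8, 28.3 and 30.2 on type L arrays 1, 2 and 3. Here the lowest type L value exceeded the highest type H value. The log2 signal after quantile normalization was 4.28, 4.31 and 4.42 in type H ECs and 4.62, 4.66 and 4.77 in type L ECs. The means were 4.34 ± 0.069 (SD, n = 3) and 4.68 ± 0.078 (SD, n = 3). The log2 difference was -0.35 (standard error 0.057, adjusted p = 0.0017 from limma). For both arms the exact two-sided permutation test over arrays gave p = 0.10, and a design of 3 against 3 cannot go lower.

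**Figure D1:**
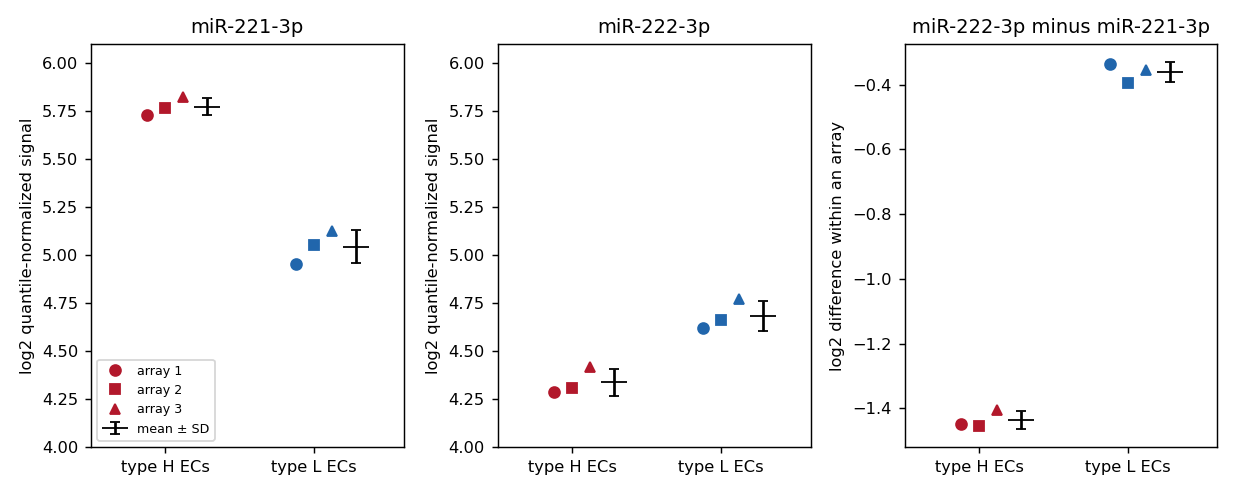
Log2 quantile-normalized signal of miR-221-3p and of miR-222-3p, and the difference between them within each array, for the 3 type H and 3 type L arrays (points) with mean ± SD (bars, n = 3). MiR-221-3p was higher in type H ECs, miR-222-3p was higher in type L ECs, and the within-array difference lay between -1.46 and -1.41 in type H and between -0.39 and -0.34 in type L ECs.

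These calls stand against a high background. Of 311 miRNAs tested, 86.8% passed an adjusted p under 0.05, 44.7% as higher and 42.1% as lower in type H ECs, and 87.8% had no overlap between the cell types. Both members passing is therefore what most miRNAs did. In size the changes were moderate. The median absolute log2 difference over the tested miRNAs was 0.66, and 62 miRNAs had a larger difference than miR-221-3p on the type H side. On the other side, 116 had a lower value than miR-222-3p.

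**Figure D2:**
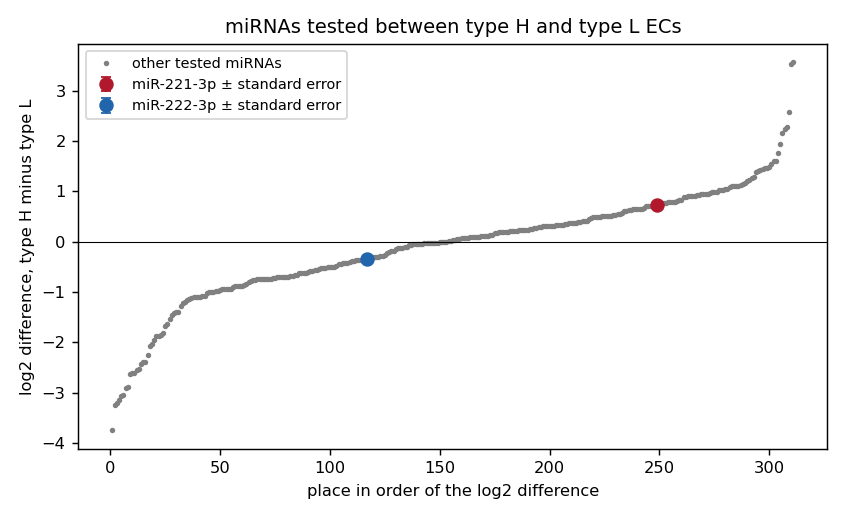
The 311 tested miRNAs in order of their log2 difference, type H minus type L ECs, with miR-221-3p at 0.73 and miR-222-3p at -0.35 marked with their standard errors. Both lie in the body of the distribution, with 62 miRNAs above miR-221-3p and 116 below miR-222-3p.

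The place of each arm in the order of brightness needs no scaling between arrays. Quantile normalization is built on this order over all miRNAs, so the places are not a separate check of it. Among the 231 miRNAs detected on all 6 arrays, counted from the brightest, miR-221-3p was at place 76, 75 and 74 on type H arrays 1, 2 and 3 and at place 94, 92 and 90 on type L arrays 1, 2 and 3. MiR-222-3p was at place 118, 117 and 114 in type H and at place 107, 105 and 100 in type L ECs. MiR-221-3p thus stood nearer the top in type H ECs and miR-222-3p nearer the top in type L ECs, on every array. Places of different probes are not amounts, so they do not say which of the pair was more abundant.

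The pair was then compared within each array, where an array-wide factor drops out. Since different probes read the pair, only the change of this difference between arrays has meaning. The log2 signal of miR-222-3p minus that of miR-221-3p was -1.45, -1.46 and -1.41 on type H arrays 1, 2 and 3. It was -0.34, -0.39 and -0.35 on type L arrays 1, 2 and 3. The means were -1.44 ± 0.026 (SD, n = 3) in type H and -0.36 ± 0.030 (SD, n = 3) in type L ECs, a difference of -1.07 (standard error 0.023), or 2.11-fold. The gap was many times the spread within a cell type, with p = 0.10 in the exact two-sided permutation test. A fit chosen after the data were seen took the signals of all tested miRNAs relative to miR-221-3p. In it the difference for miR-222-3p had an adjusted p of 2.4e-07 from limma. All rows of this fit share the deviations of miR-221-3p, which limma counts as separate evidence on the spread. This p-value therefore does not measure independent spread between arrays. In that fit 73.5% of the other miRNAs were also called as lower in type H ECs, since miR-221-3p itself was on the higher side.

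Within a cell type the arrays differed little. After quantile normalization the deviations from the cell type mean were -0.090 to 0.081 on the log2 scale for miR-221-3p and -0.064 to 0.087 for miR-222-3p. On both slides array 3 had the highest signal of each arm and array 1 the lowest, an order seen in 5 of the 231 miRNAs, the pair included. Before normalization array 1 was instead the brightest type H array for both. The software gave the raw signal of miR-221-3p an error of 4.51 on the 60.3 of type H array 1, a relative size like that of the deviations, so no joint variation of the pair was read from 3 arrays per cell type.

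Each probe was also read on its own, without normalization. The 19-base probe of miR-221-3p gave 23.1, 19.7 and 18.8 in type H and 13.98, 15.3 and 15.9 in type L ECs. Its 20-base probe gave 37.2, 30.9 and 30.7 in type H and 20.1, 22.4 and 23.7 in type L ECs. Both were higher on each type H array than on any type L array, with log2 differences of 0.44 and 0.57. The 13-base probe of miR-222-3p gave 7.76, 6.45 and 6.61 in type H and 10.2, 11.2 and 12.2 in type L ECs. Its 14-base probe gave 13.3, 10.501 and 10.8 in type H and 16.6, 17.05 and 18.1 in type L ECs. Both were higher on each type L array than on any type H array, with log2 differences of -0.69 and -0.59. Over the 4 pairings of 1 probe of each miRNA, the within-array difference shifted by -1.27 to -1.03. Each probe had 15 spots on an array. The coefficient of variation between spots was 3.68 to 8.39% for miR-221-3p and 4.44 to 15.0% for miR-222-3p, the dimmer of the signals. All 180 spots of either miRNA over the 6 arrays were well above background, 0 were saturated, and 5 spots of miR-222-3p were set aside as outliers.

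**Figure D3:**
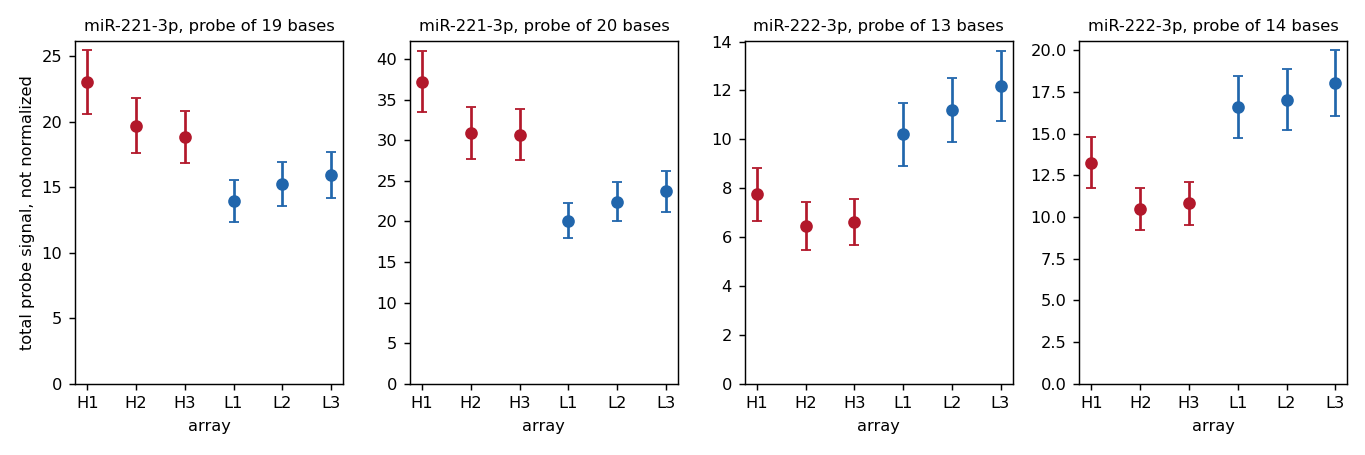
Total signal of each probe on each array before normalization (points), with the error that the scanner software gave it (bars), for the probes of miR-221-3p and miR-222-3p. Both miR-221-3p probes were brighter on the type H arrays H1 to H3, and both miR-222-3p probes on the type L arrays L1 to L3.

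Probe length moved with these differences. Across the 231 miRNAs detected on all 6 arrays, the log2 difference and the length of the longest probe had a Spearman's rho of 0.45, a description across miRNAs that share the same 6 arrays. The 33 miRNAs whose longest probe has 14 bases, miR-222-3p among them, had a median log2 difference of -0.35, with 11 of them higher in type H ECs. MiR-222-3p lay at that median, with 16 above and 16 below. The 20 miRNAs whose longest probe has 20 bases, miR-221-3p among them, had a median of 0.46, with 17 of them higher in type H ECs. Of these 20, 5 had a larger difference than miR-221-3p and 14 a smaller one. The medians of the groups by length differed by -0.80. Relative to them the pair differed by -0.27, with miR-221-3p 0.27 above its group's median. The part of probe length in the shift was not tested.

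The scaling between arrays moved each arm, while a factor common to an array drops out of the pair's difference. When each array was instead divided by its 75th percentile, taken over the 231 miRNAs above, the log2 difference was 0.42 for miR-221-3p (adjusted p = 0.00017 from limma) and -0.73 for miR-222-3p (adjusted p = 1.2e-05 from limma). In the authors' own log2 table it was 0.74 and -0.35. Scaled instead on the control features, an alternative chosen after the data were seen, both arms were lower in type H ECs, at -0.19 (adjusted p = 0.042 from limma) and -1.35 (adjusted p = 9.4e-09 from limma). Under that scaling 9.06% of the calls were on the higher side, and the median over the tested miRNAs was -0.88. MiR-221-3p was therefore on the higher side of the other miRNAs under every scaling. It was lower than in type L ECs when judged by the mean log2 signal of the control features. Single control features differed by 0.21 to 1.47, and miR-221-3p without normalization by 0.52, inside that range. Its sign thus depended on which control features were used. The pair's difference was by construction the same, -1.15, under the scalings that multiply each array by 1 factor. It was -0.56 with normexp background correction, which adds an offset of 50.

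**Figure D4:**
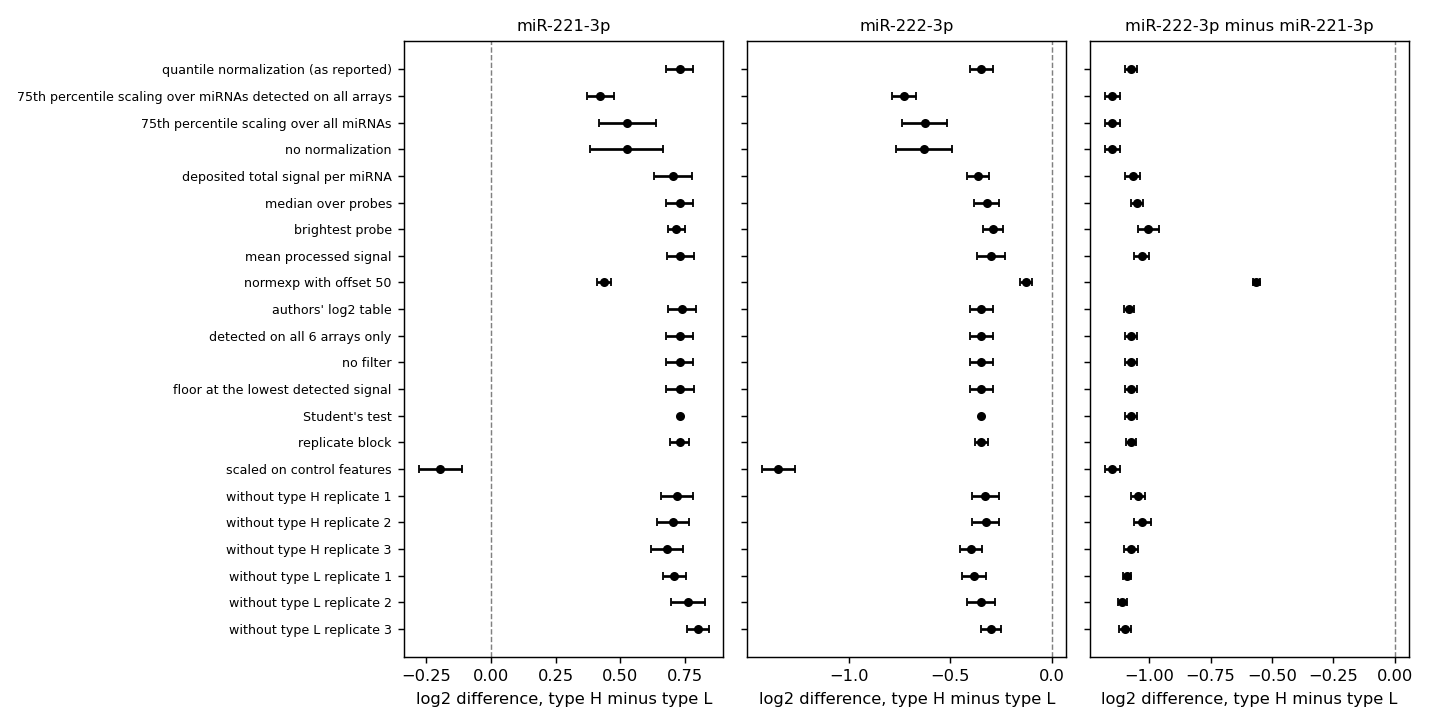
Log2 difference, type H minus type L ECs, of miR-221-3p and of miR-222-3p, and the difference between these changes, for quantile normalization and the alternatives of scaling, signal, filter, test and left-out arrays, with standard errors where available. Single-probe pairings and the comparison by probe length are not drawn. MiR-221-3p was above 0 except after scaling on control features (-0.19), miR-222-3p was below 0 in each setting drawn, and the difference between them ran from -1.15 to -0.56 in these settings.

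The 5p arms, the strands usually discarded, gave no level. MiR-221-5p was detected on 0 of 6 arrays, and its summed probe signal was 1.18, 0.56 and 0.52 on type H arrays 1, 2 and 3 and -0.11, -0.32 and -0.44 on type L arrays 1, 2 and 3. MiR-222-5p was also detected on 0 of 6, with 0.79, 0.28 and 0.36 in type H and 0.63, 0.85 and 0.37 in type L ECs. On every array these were under the lowest signal of a detected miRNA, which was 0.69 to 1.92. The highest ratio of a probe total to its own error was 0.92 for miR-221-5p and 1.70 for miR-222-5p. Since all of them were below detection, the 5p signals were not read for an order between the cell types. Whether the arms changed together could not be compared.

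The miRNAs whose signals ran most like each arm were looked for among the 231 detected on all 6 arrays, by the root mean square difference of mean-centred log2 signals over the 6 arrays. For miR-221-3p the closest was miR-30c-2-3p, at 0.017 and with a log2 difference of 0.74, followed by miR-467b-5p, miR-15a-5p, miR-532-5p and miR-149-5p at 0.049 to 0.054. For miR-222-3p the closest was miR-34c-3p, at 0.031 and with a log2 difference of -0.35, followed by miR-5622-3p, miR-5126, miR-3072-5p and miR-7118-5p at 0.036 to 0.060. The partner was far down both orders. MiR-222-3p stood at place 160 of 230 from miR-221-3p, and miR-221-3p at place 185 of 230 from miR-222-3p, at 0.54 against medians of 0.34 and 0.31. By this measure most other miRNAs ran more like either arm than its genomic neighbour did. Because arrays of a cell type differed little, the measure mainly followed the difference between the cell types. The places therefore restate the opposite changes given above and are not a separate result.

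To set the pair beside other neighbours in the genome, miRNAs of different hairpins within 10 kb on 1 strand were paired, which gave 32 pairs over 32 miRNAs detected on all 6 arrays and placed once in RefSeq. The pairs share miRNAs and are a description only. The median absolute difference between the changes of a pair was 0.38, and 3 pairs had a larger difference than the 1.07 of miR-221-3p and miR-222-3p. In 4 of the 32, this pair included, the members were called in opposite directions. The others were miR-362-3p with miR-188-5p and miR-99b-5p with each arm of miR-125a. Under 75th percentile scaling 9 of the 32 pairs were called in opposite directions and without normalization 2, and miR-221-3p with miR-222-3p was among them in both. After scaling on the control features it was not. The number of pairs with a larger difference rose to 5 under these and to 10 in the authors' log2 table.

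**Figure D5:**
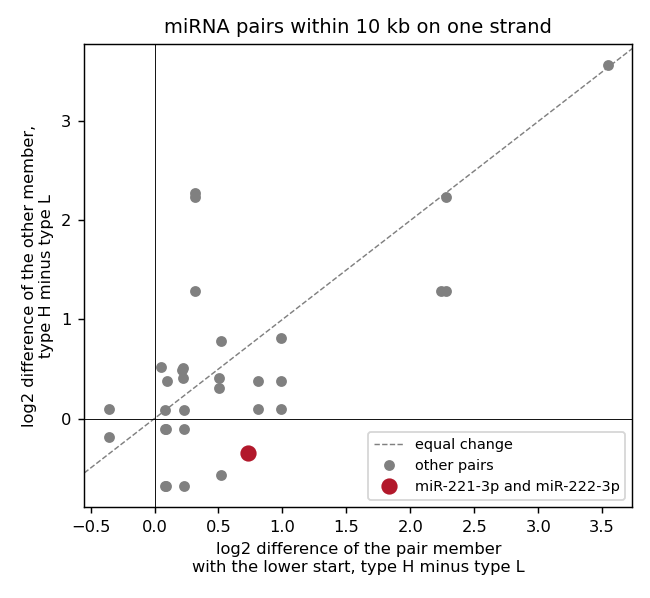
Log2 differences, type H minus type L ECs, of the members of 32 pairs of miRNAs that lie within 10 kb on 1 strand, with the member of lower start on the horizontal axis. The dashed line marks equal change, and miR-221-3p (0.73) with miR-222-3p (-0.35) lies in the quadrant of opposite signs.

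Of other miRNAs linked to vessel growth, 34 were listed, all on the array, and 27 were tested. After quantile normalization 20 were higher, 4 were lower and 3 did not pass, with a median log2 difference of 0.41 against 0.026 over all tested miRNAs, of which 44.7% were higher. The list was not chosen independently of these data. It shares miR-214-3p (0.64) with the stromal or mural markers, of which 5 of 7 were also higher in type H ECs, and their part in the list's result was not tested. MiR-221-3p thus lay on the side of the majority of the list and miR-222-3p on that of its minority. The largest rises were those of miR-18a-5p (2.28), miR-19a-3p (2.24) and miR-132-3p. MiR-18a-5p and miR-19a-3p belong to the miR-17-92 cluster, which favours proliferation. MiR-132-3p, known to release vessel sprouting from its brake on Ras, was seen on 3 type H and 0 type L arrays. After quantile normalization its signal was 3.05-fold brighter in type H ECs. This fold takes the type L signals as measured, although they were not called detected. Its value under other scalings is not given here. The largest falls were those of miR-218-5p (-0.68), miR-210-3p (-0.59), which is induced by hypoxia through HIF-1α, and miR-23b-3p (-0.28). How the list divided depended on the scaling, with 15 higher and 8 lower after 75th percentile scaling and 6 higher and 18 lower after scaling on control features.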

How the data were processed

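Small RNA of 3 samples of type H and 3 of type L ECs was hybridised to 1-colour (Cy3) Agilent mouse miRNA arrays, per the methods, while the labels name a kit for cRNA amplification. The authors extracted the deposited intensities with Feature Extraction 10.7.1.1, which subtracts background, removes spatial trends and totals the spots of each probe, without normalization between arrays. The authors also deposited log2 values per miRNA, which the methods describe as quantile-normalized. The scale of that table is log2, its direction follows the signal, and its column medians are -3.32 to -3.26. Most of the 1881 miRNAs were not detected on any given array, so these medians fall among undetected miRNAs. The table served only as an alternative.

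The signal used was the sum of the total probe signal over the distinct probes of a miRNA. For the 3p arms it equalled the deposited total per miRNA within a relative tolerance of 1e-05. Sums were quantile-normalized over 1881 miRNAs, set to at least 1 and logged. The 311 miRNAs that every array of type H or every array of type L detected were compared with limma 3.58.1 in R 4.3.3 (lmFit, eBayes, Benjamini-Hochberg, threshold 0.05). The array number limits precision. Members, lists, naming rules and alternatives were chosen with earlier results of these data known. Named were the members, miRNAs sharing their seed, the 5 closest in profile and the 3 largest rises and falls of the list. The code was tested on simulated data.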

Additional observations from a re-analysis of the deposited data

How the results depend on the processing

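Under 20 alternatives, 6 of which left out an array, miR-221-3p stayed higher and miR-222-3p lower in type H ECs. Both stayed past the threshold in limma or in the methods' t-test, with adjusted p of 3.3e-06 to 0.00067 and of 3.0e-08 to 0.012. The lowest of these came from 75th percentile scaling over all miRNAs, where limma gave both arms the same standard error of 0.11. That is larger than the 0.053 and 0.057 after quantile normalization. These lowest values rest on a spread pooled over miRNAs and do not mark firmer results. The log2 difference of miR-221-3p was 0.42 to 0.74 over the 14 alternatives that kept all arrays and 0.68 to 0.80 with each array left out. That of miR-222-3p was -0.73 to -0.13 and -0.40 to -0.30. The difference between the changes, -1.07, was -1.15 under both 75th percentile scalings, without normalization and with control features, -1.003 with the brightest probe, -1.03 with the mean processed signal, -0.56 with normexp and -1.11 to -1.03 with each array left out. For single probes it was -1.14, -1.03, -1.27 and -1.16, and relative to miRNAs of the same probe length -0.27. With the mean of the control features miR-221-3p reversed to -0.19. Without a detection filter 413 miRNAs passed, against 270, with more miRNAs tested, but most of their variances were 0, for which limma gave a warning. The list's count stayed within 18 to 26. With the replicate block the log2 differences were the same, 0.73 and -0.35, and 262 miRNAs passed. Same-numbered arrays did not deviate together (correlations -0.0055, -0.025 and 0.12 across 231 miRNAs), so the numbers were not taken to pair the arrays. The 5p arms, detected on 0 arrays, were not run, nor was a comparison of arms. Of the calls, 51.5% were on the higher side after quantile normalization and 35.8% after 75th percentile scaling.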
